A study of Mus musculus with 12 samples.

Results

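The comparison of genotype labels on chow rests on 6 of the 12 libraries in the study: 3 labelled ApoE KO CD and 3 labelled Wt CD. They were chosen by these titles and are described across all genes with enough counts, which were 16932 of 55335 gene identifiers. Each library is RNA-seq of cardiomyocytes, the contractile cells of the heart, from male mice that were 7 to 8 weeks old at the start. The wild-type mice were C57BL/6J, the knockout mice were of the line B6.129P2-Apoe tm1Unc/J, and both chow groups ate chow for the 7 weeks of the study. The other 6 libraries are of the same 2 genotypes on a Western-type high fat diet, in a study of metabolic stress that models HFpEF, heart failure with a preserved ejection fraction, in mice. The allele removes Apoe from every cell of the body, not only from cardiomyocytes. The strain name records an allele made in 129P2 cells and moved onto a C57BL/6 background, and in such lines the DNA beside the targeted gene often stays that of the donor strain. An effect of the neighbouring DNA and an effect of the missing protein cannot be told apart in this design. Nothing in the labels ties a replicate to an animal of its own, and all p-values therefore rest on library-to-library spread, which may be technical.

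Apolipoprotein E is the protein on remnant lipoproteins that receptors of the LDL receptor family bind, and mice without it have high plasma cholesterol. In most tissues outside the liver its main source is macrophages, where cholesterol-derived oxysterols switch the gene on through the nuclear receptors LXR. The same receptors switch on Abca1, the pump that hands cellular cholesterol to apolipoproteins, and Srebf1, whose product SREBP-1c drives fatty acid synthesis and desaturation.

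The measured Apoe level went against the genotype label on chow: Apoe itself was higher under the knockout label. Counts on Apoe (ENSMUSG00000002985, GRCm38 chromosome 7, 19696109 to 19699188, minus strand) were 92, 54 and 96 in the libraries labelled wild type and 898, 602 and 274 in those labelled knockout. As CPM (the share of the library's counts, per 1e+06, scaled by TMM factors, as all CPM here) they were 2.91, 2.12 and 3.604 against 25.2, 23.9 and 6.92. The groups did not overlap, and knockout-labelled replicate 3 was the lowest of its group. In the high fat diet libraries the order was the other way round, with 18.9 and 8.43 CPM under the wild-type label and 1.94, 3.02 and 3.15 under the knockout label (log2 fold change −2.34, not called). Because of this conflict every direction below is given by label, and "knockout-labelled" does not say that the mice lacked Apoe. The sources used here do not say which reads of a gene were counted. Whether the counts include any transcript that an interrupted allele still makes is therefore not known.

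By edgeR's quasi-likelihood test, with Benjamini-Hochberg adjustment over all genes, the Apoe log2 fold change on chow (knockout label minus wild-type label) was 2.69 (SE 0.53, adjusted p = 0.0648). It did not pass the 0.05 threshold. It passed by DESeq2 (2.68, adjusted p = 0.000189), with a stricter count filter (2.66, adjusted p = 0.0484) and without knockout-labelled replicate 3 (3.10, adjusted p = 0.00034). It did not pass in the other alternatives, in which adjusted p ran from 0.0612 to 0.321 and the fold change from 2.40 to 2.88. An exact two-sided permutation test of 3 against 3 libraries gave p = 0.1, the smallest it can give. The difference between the diets, tested as an interaction, was −5.03 (SE 0.76, adjusted p = 0.0428 by edgeR). That call was lost without any 1 of 7 of the 11 libraries, with a range of −5.55 to −4.38.

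Macrophage markers moved with Apoe inside the knockout-labelled group. Summed over 19 macrophage markers, the level was 52.2, 45.3 and 9.29 CPM in knockout-labelled replicates 1, 2 and 3, in the same order as Apoe, and 30.6, 15.5 and 15.6 CPM in the wild-type-labelled libraries. The level in knockout-labelled replicate 3 was below that of each wild-type-labelled library, while its Apoe level was above theirs. The part of macrophage content in the Apoe difference was not tested. No macrophage marker was called, and their groups overlapped. In bulk libraries fewer cells of a type and less RNA per cell cannot be told apart.

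Across all tested genes 86 were called at an adjusted p under 0.05, or 0.508%. Of these, 21 were higher under the knockout label (0.124%) and 65 were lower (0.384%), and 2685 genes had an unadjusted p under 0.05. Independently of any test, 2810 genes (16.6%) had CPM ranges that did not overlap between the 2 chow groups. Read with the levels in the high fat diet libraries, most called genes fall into overlapping sets, and 17 meet more than 1 description. The sets include genes near Apoe whose order turned round with diet as that of Apoe did. Other genes kept their side of the label on both diets. In 11 called genes the knockout-labelled chow libraries overlapped no other library in the fit, against 161 of all tested genes (0.951%). In a large set the wild-type-labelled chow libraries overlapped no other library in the fit, and some genes met both of these last descriptions. The chow difference that chose the 86 is 1 side of each of these descriptions. On the high fat diet 8 genes (0.0472%) were called between the genotype labels, 5 of them among the 86. The interaction was called for 37 genes (0.219%), 31 of them among the 86, and the 86 were chosen by a contrast that is one side of it.

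**Figure D1:**
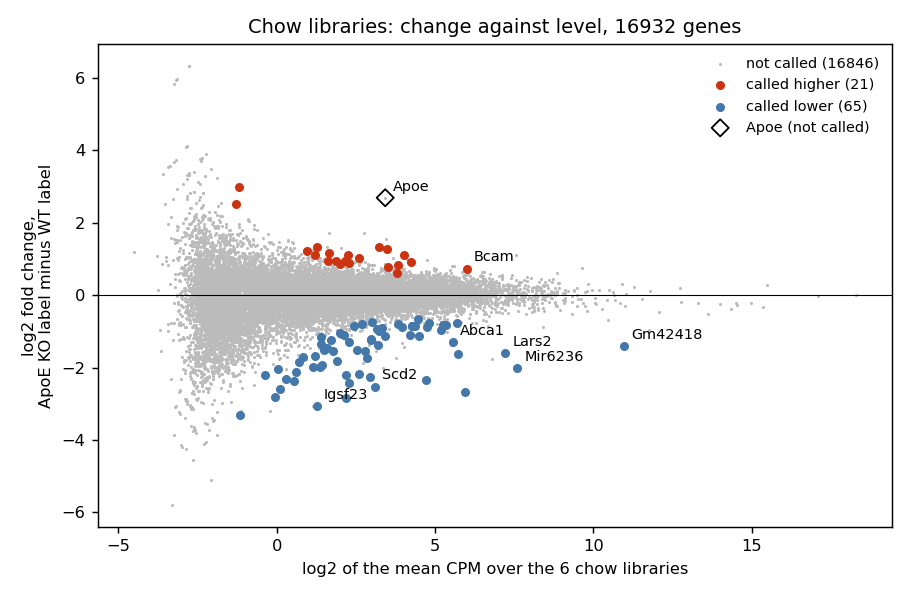
Log2 fold change (knockout label minus wild-type label) against the log2 of the mean CPM over the 6 chow libraries, one point per tested gene. The 65 genes called lower and 21 called higher are coloured, and Apoe, the open diamond, is at 2.69 and not called.

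Sequencing depth did not separate the groups. The chow libraries held 22130323 to 42360232 counts on genes, of which 51.5% to 69.3% were on the mitochondrial genome. The knockout-labelled libraries detected more genes, with 32049 to 38287 gene identifiers with a count against 26156 to 31465, which did not overlap (exact permutation p = 0.1, adjusted p = 0.38 over 19 library measures). Ventricular cardiomyocyte markers summed to between 100800 and 117400 CPM in every chow library. The tested lymphocyte and neutrophil, erythroid and platelet, and neural markers each summed to below 6 CPM. Only 3 of 14, 3 of 12 and 5 of 10 members of these lists passed the count filter, and the sums leave out the rest. The root mean square log2 difference between replicates over 7049 genes was 0.266 to 0.271 among the knockout-labelled libraries and 0.348 to 0.469 among the wild-type-labelled ones. Wild-type-labelled replicate 2 stood farthest from its group. Without it 1801 genes were called, 1048 higher and 753 lower, and all 86 were among them. One high fat diet library, replicate 3 under the wild-type label, was left out of all fits because most of its counts on overlapping gene pairs lay on the opposite strand. With it in the fit 3 genes were called, Igsf23, Scd2 and Zfp30, each lower under the knockout label, and 723 had an unadjusted p under 0.05.

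Genes beside Apoe made up a visible share of the calls. Within 10 Mb of Apoe 244 genes were tested and 11 called (4.51%), 3 higher and 8 lower, against 75 of 16688 elsewhere (0.449%) and 4 of 1081 on the rest of chromosome 7 (0.37%). The median log2 fold change within the window was −0.20, against −0.01 elsewhere. All 11 had the opposite order on the high fat diet, with no overlap between the labels on either diet. With both diets pooled, the turned order held without overlap in 19 of the 244 genes and in 111 of all tested genes (0.656%). The 11 were chosen by the chow difference, which is 1 side of this order. This placement near Apoe had been seen in an earlier analysis of the same files, and it is given here as a description.

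Igsf23, an immunoglobulin superfamily gene 0.238 Mb from Apoe (chromosome 7, 19937305 to 19950756), differed most of the 11. It had 2.59, 5.41 and 4.96 CPM in the wild-type-labelled chow libraries and 0.618, 0.397 and 0.505 CPM in the knockout-labelled ones. On the high fat diet the wild-type-labelled libraries had 0.465 and 0.578 CPM and the knockout-labelled ones 5.06, 5.59 and 6.13 CPM. So the wild-type-labelled chow libraries and the knockout-labelled high fat diet libraries shared the higher range, and no library lay between 0.618 and 2.59. The chow log2 fold change was −3.06 (SE 0.30, adjusted p = 5.55e-05), and on the high fat diet it was 3.40 (SE 0.34, adjusted p = 7.52e-05), both by edgeR.

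Blvrb, which encodes a biliverdin reductase (chromosome 7, 27447978 to 27466144), had 3.06, 5.68 and 3.604 CPM under the wild-type label on chow and 0.899, 1.15 and 1.09 CPM under the knockout label. Under the high fat diet it had 0.684 and 0.867 CPM against 4.99, 4.32 and 3.35 CPM, so the order turned round. Pnmal2, of the paraneoplastic antigen family (16944682 to 16948828), had 6.00, 7.33 and 4.204 CPM against 1.54, 1.23 and 2.12 CPM on chow. Its high fat diet values were 1.12 and 1.49 CPM against 6.401, 6.63 and 5.70 CPM. Trappc6a, a subunit of the TRAPP vesicle-tethering complex (19508395 to 19516145), had 4.36, 4.31 and 4.09 CPM against 0.871, 0.953 and 1.49 CPM, and on the high fat diet 1.40 and 1.04 CPM against 4.13, 3.39 and 2.73 CPM. In each of these genes the lower and the higher ranges were far apart, with fold differences on chow of 3.93 for Blvrb, 3.53 for Pnmal2 and 3.80 for Trappc6a. Genes called lower in the window also included Ccdc8 (log2 fold change −1.16), Ccdc9 (−1.12) and Sae1 (−0.73), the last encoding a subunit of the SUMO-activating enzyme. Leaving out 1 chow library ended the call of Ccdc8 and Ccdc9 in 4 of 6 fits and of Sae1 in 5.

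The 3 genes called higher in the window lie within 0.424 Mb of Apoe, as do Trappc6a and Igsf23 among those called lower. Bcam, which encodes a laminin-binding cell adhesion molecule (19756131 to 19771016), had 53.03, 49.8 and 42.2 CPM under the wild-type label on chow and 74.5, 85.9 and 80.8 CPM under the knockout label. Its high fat diet values were 79.3 and 76.7 CPM against 51.0, 51.2 and 46.9 CPM. Vasp, an actin regulator (19256929 to 19271817), had 3.601, 2.43 and 3.12 CPM against 6.46, 5.003 and 6.29 CPM on chow. Ercc2, the XPD helicase of transcription factor TFIIH and of nucleotide excision repair (19382010 to 19395694, overlapping Mir343 on the same strand), had 3.10, 2.67 and 2.74 CPM against 4.94, 5.32 and 5.33 CPM. The log2 fold changes on chow were 0.73 (SE 0.12) for Bcam, 0.95 (SE 0.19) for Vasp and 0.87 (SE 0.19) for Ercc2, with edgeR adjusted p of 0.00857, 0.0299 and 0.0433. All 3 calls were lost in the fit of the 6 chow libraries alone. Bcam also lost its call without knockout-labelled replicate 2, and Vasp and Ercc2 lost theirs in 3 and 5 of the 6 fits that left out 1 chow library.

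**Figure D2:**
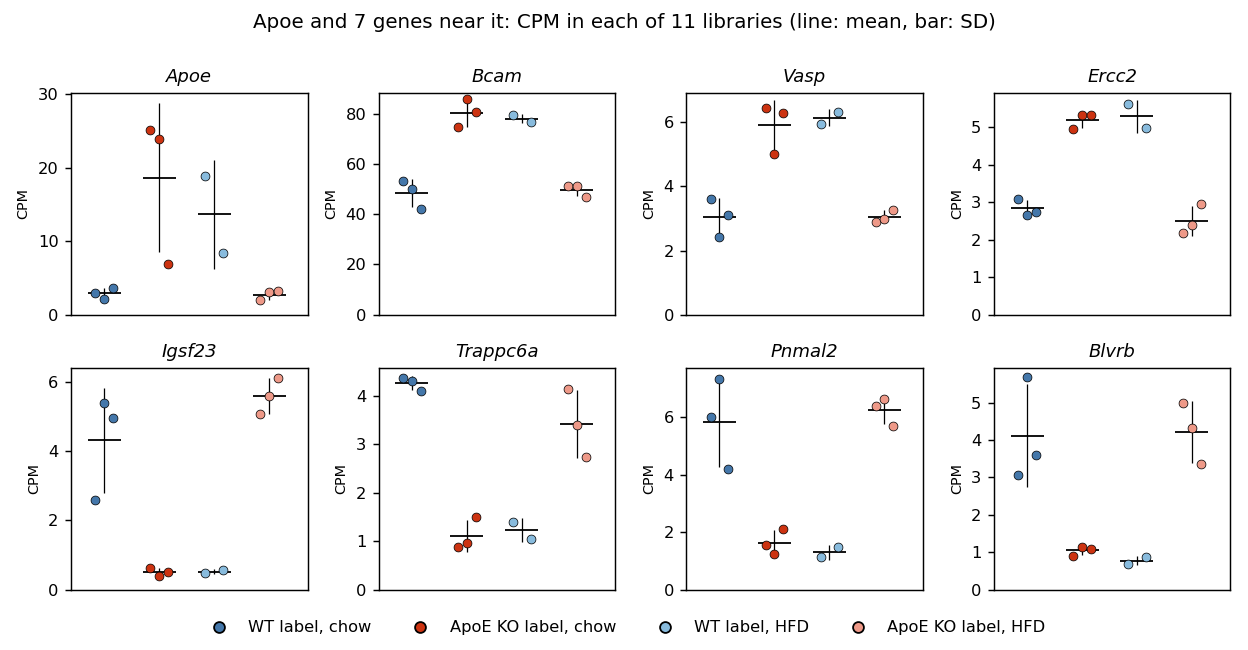
CPM of Apoe, Bcam, Vasp, Ercc2, Igsf23, Trappc6a, Pnmal2 and Blvrb in each of 11 libraries, with the group mean (line) and SD (bar). In all 8 panels the wild-type-labelled chow libraries lie in the range of the knockout-labelled high fat diet libraries or near it, and the other 2 groups lie together on the far side.

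Zfp30, a zinc finger gene on the same chromosome just past the window (10.1 Mb away, 29783998 to 29794702), followed the same order. It had 8.69, 10.7 and 11.4 CPM against 3.26, 3.26 and 4.07 CPM on chow, and 3.42 and 3.98 CPM against 10.99, 8.72 and 8.88 CPM on the high fat diet. The chow log2 fold change was −1.53 (SE 0.18, adjusted p = 0.000298) and the high fat diet one 1.36 (SE 0.20, adjusted p = 0.00637). Altogether 21 of the 86 called genes had this turned order with no overlap when both diets were pooled, against 111 of all tested genes (0.656%). The 10 outside the window include genes on other chromosomes that were named after their values were seen: Zkscan3, a zinc finger gene on chromosome 13 (29.0, 23.9 and 22.2 CPM against 17.4, 10.1 and 14.1 on chow), and Akt2-ps, a processed pseudogene on chromosome 11. Akt2-ps had 1.17, 1.53 and 1.16 CPM against 0.225, 0.278 and 0.328 on chow, and 0.164 and 0.311 against 1.05, 1.19 and 0.875 on the high fat diet. A pseudogene can share reads with its parent gene, so the count of Akt2-ps and the chromosome its reads came from are uncertain.

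**Figure D3:**
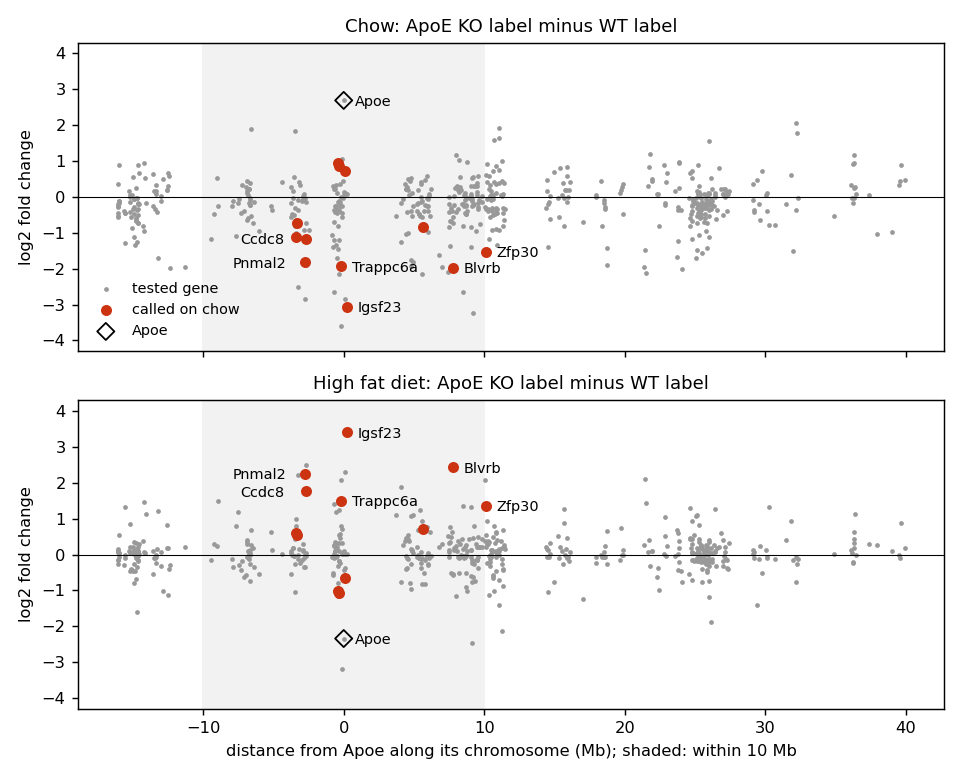
Log2 fold change of each tested gene within 40 Mb of Apoe on its chromosome against the distance from Apoe in Mb, on chow (top) and on the high fat diet (bottom), with genes called on chow in red. The 11 called genes in the shaded 10 Mb window, Zfp30 just outside it and Apoe lie on opposite sides of 0 in the 2 panels.

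Some genes of lipid handling were lower under the knockout label on chow. Of 14 tested LXR targets 3 were called, Abca1, Srebf1 and Scd2, and of 18 tested genes of fatty acid synthesis 3 were called, Scd2, Scd4 and Srebf1. Over all tested genes 0.508% were called. Scd2 and Srebf1 are on both lists, which were chosen with earlier results of these data known. The RefSeq promoter table held 4 of the 6 called lipid genes, Abca1, Srebf1, Scd4 and Mgll. The windows of Abca1 and Srebf1 hold the letters searched for here as part of a site for LXR, and they are shown because both genes were lower. The 250 bases before the start of each are from RefSeq on GRCm38.p6. They are written 5′ to 3′ on the strand of the gene, with the letters (GGGTTACT, or AGTAACCC when read on the other strand) in capitals.
Abca1, chr4:53159896-53160145, minus strand: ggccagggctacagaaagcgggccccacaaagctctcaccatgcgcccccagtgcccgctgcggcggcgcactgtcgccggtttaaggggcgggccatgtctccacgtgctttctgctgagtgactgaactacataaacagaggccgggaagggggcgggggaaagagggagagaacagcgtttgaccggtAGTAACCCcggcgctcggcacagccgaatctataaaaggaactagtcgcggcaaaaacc
Srebf1, chr11:60210472-60210721, minus strand: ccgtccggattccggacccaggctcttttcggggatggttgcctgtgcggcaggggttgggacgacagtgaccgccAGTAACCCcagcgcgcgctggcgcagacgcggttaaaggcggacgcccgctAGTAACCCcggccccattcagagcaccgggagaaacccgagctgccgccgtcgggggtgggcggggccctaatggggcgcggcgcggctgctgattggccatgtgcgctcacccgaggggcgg

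These letters occur 1 time before Abca1, 51 bases before the start, and 2 times before Srebf1, 115 and 166 bases before the start. Of 32851 promoter windows of this length, 159 (0.484%) hold them on either strand. Both genes were already known as LXR targets, so a match before them is no separate evidence about these libraries. The Abca1 window also holds CACGTG, the E-box letters, which 6.02% of windows hold, and that match does not overlap the GGGTTACT match. The 2 other annotated Srebf1 starts and the windows of Scd4 and Mgll hold no GGGTTACT on either strand. A match is a description of the letters, not a measured binding site.

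Abca1 (chromosome 4, 53030787 to 53159895) had 67.0, 72.7 and 60.3 CPM under the wild-type label and 24.8, 34.8 and 22.5 CPM under the knockout label on chow, which differed by −1.29 on the log2 scale (SE 0.16, edgeR adjusted p = 0.000505). The high fat diet libraries lay between these groups, with 58.4 and 45.3 CPM under the wild-type label and 41.4, 40.8 and 43.9 CPM under the knockout label. Srebf1 (chromosome 11, 60199089 to 60222581) had 25.4, 28.5 and 39.4 CPM against 9.63, 17.9 and 15.2 CPM on chow, which differed by −1.13 (SE 0.19, edgeR adjusted p = 0.00857). Its high fat diet values were 26.4 and 25.5 CPM against 15.6, 16.6 and 15.5 CPM. For both genes the knockout-labelled libraries lay below the wild-type-labelled ones on both diets, although neither was called on the high fat diet (log2 fold changes −0.30 and −0.71). The Srebf1 call was lost without wild-type-labelled replicate 3 (log2 fold change −0.93), the highest of its group. A microRNA gene, Mir6922, overlaps Srebf1 on the same strand.

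Scd2, a stearoyl-CoA desaturase that puts the double bond into saturated fatty acids (chromosome 19, 44293674 to 44306864, overlapping Mir5114 on the same strand), had the smallest p-value of all genes. It had 16.7, 17.6 and 10.02 CPM under the wild-type label and 2.81, 2.34 and 2.52 CPM under the knockout label on chow. In the high fat diet libraries it ran from 6.401 to 10.1 CPM under both labels, so only the knockout-labelled chow libraries stood apart. The log2 fold change was −2.52 on chow (SE 0.23, adjusted p = 4.13e-05) and 0.11 on the high fat diet (SE 0.24). Scd4, a second desaturase gene of the same cluster, had 9.47, 11.4 and 12.4 CPM against 4.41, 6.35 and 3.41 CPM on chow, and 8.86 and 6.92 CPM against 4.66, 4.47 and 6.38 CPM on the high fat diet (chow log2 fold change −1.25, SE 0.22, adjusted p = 0.00915). Scd genes are close in sequence, and reads could be split between them. The Scd4 call was lost without wild-type-labelled replicate 3 or knockout-labelled replicate 1 or 3.

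The rest of the LXR list was mixed. Its median log2 fold change was −0.65, with 10 of 14 members below 0, against −0.01 over all tested genes. Abcg1, a second cholesterol exporter, had −1.76 (adjusted p = 0.0734), Scd1 −1.66 (0.067) and Mylip, the ubiquitin ligase that degrades the LDL receptor, −0.81 (0.0617), none of them called. Apoe itself is a member and had 2.69, while Lpl, lipoprotein lipase, had 0.31 and the receptor genes Nr1h3 and Nr1h2 −0.24 and −0.13. Without wild-type-labelled replicate 1 the list median was −0.38. Of the fatty acid synthesis list 15 of 18 members lay below 0 with a median of −0.23, and Fasn (fatty acid synthase) had −0.44 and Acaca (acetyl-CoA carboxylase) 0.08, both not called. Genes of cholesterol synthesis and uptake, which SREBP-2 drives, had 0 of 22 called and a median of 0.09.

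A gene of triglyceride uptake was also called lower. Gpihbp1, which carries lipoprotein lipase to the capillary wall, had 6.47, 3.02 and 5.82 CPM under the wild-type label and 2.42, 1.35 and 1.51 CPM under the knockout label on chow (log2 fold change −1.53, SE 0.28, adjusted p = 0.015). Its high fat diet values were 3.99 and 3.98 CPM against 1.81, 2.42 and 2.40 CPM. It is a gene of endothelial cells, and 20 of 20 endothelial markers had a fold change below 0, between −1.10 and −0.03 with a median of −0.58 and none called. Their summed level was 252, 119 and 276 CPM under the wild-type label and 164, 138 and 124 CPM under the knockout label, which overlapped. The part of endothelial content in the Gpihbp1 result was not tested. The Gpihbp1 call was lost in the fit of the 6 chow libraries and in 4 of the 6 fits that left out 1 of them. Chosen after their values were seen, Mgll (monoacylglycerol lipase) had −0.89 and Fbp2, the muscle fructose bisphosphatase, −0.91, both called and both lower under the knockout label. Among 21 PPAR-alpha targets, 19 were below 0 (median −0.36) and 0 were called. Acot1, an acyl-CoA thioesterase, had −0.83 on chow (adjusted p = 0.0734) and −1.15 on the high fat diet (adjusted p = 0.0885), called on neither.

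By sign alone, 27 of the 86 called genes (31.4%) had the same direction on both diets, against 49.1% of all tested genes. Of the 86, 11 kept the same side of the label on both diets without overlap, 9 lower and 2 higher, against 133 of all tested genes (0.785%). The 86 were chosen by the chow difference, which is 1 side of this description. The Apoe order turned round between the diets, so these 11 did not follow it. Among the 11 are Abca1, Srebf1, Scd4, Gpihbp1, Fbp2 and Abat. Abat, which encodes GABA transaminase, had 3.88, 4.08 and 3.94 CPM under the wild-type label and 7.81, 6.87 and 9.65 CPM under the knockout label on chow, and 2.52 and 3.67 CPM against 7.91, 6.04 and 6.83 CPM on the high fat diet. Its log2 fold changes were 1.04 on chow (SE 0.19, adjusted p = 0.015) and 1.16 on the high fat diet (SE 0.22, adjusted p = 0.0795), with an interaction of 0.12 (adjusted p = 0.931). The Abat call on chow was lost in the fit of the 6 chow libraries and without wild-type-labelled replicate 3 or knockout-labelled replicate 1 or 3. None of the 11 was called on the high fat diet.

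**Figure D4:**
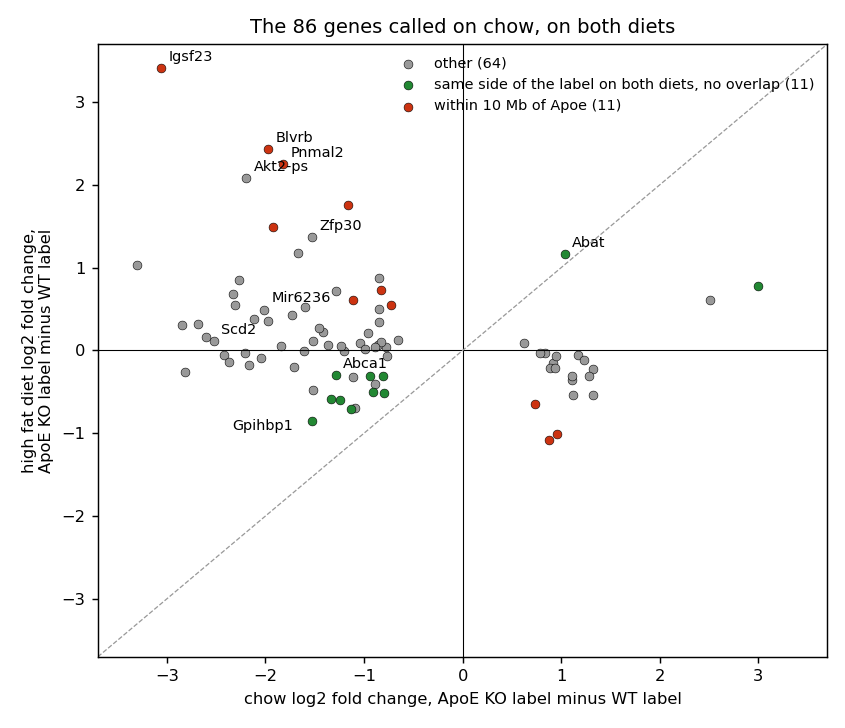
High fat diet against chow log2 fold change (knockout label minus wild-type label) for the 86 genes called on chow, with the dashed line at equal change. Genes within 10 Mb of Apoe lie in the quadrants of opposite sign, the 11 that kept their side of the label without overlap lie in those of equal sign, and most others lie near 0 on the high fat diet.

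In the largest set the wild-type-labelled chow libraries stood apart from all others. For 59 of the 86 called genes (44 lower and 15 higher under the knockout label) these 3 libraries did not overlap the other 8, which was so for 1199 of all tested genes (7.08%).

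Small subunits of the oxidative phosphorylation complexes were among them. Atp5k, subunit e of ATP synthase, had 63.7, 65.5 and 111 CPM under the wild-type label and 25.9, 25.4 and 27.2 CPM under the knockout label on chow, and 24.2 to 35.4 CPM in all high fat diet libraries (log2 fold change −1.61, SE 0.19, adjusted p = 0.000464). Ndufa1, a complex I subunit, had 26.3, 42.6 and 35.0 CPM against 15.6, 21.8 and 18.9 CPM (−0.89, SE 0.19, adjusted p = 0.0433). Ndufv3, also of complex I, had −0.78, and Atp5o, the stalk subunit of ATP synthase whose symbol is shared by 2 gene identifiers, had −0.82 and overlapped 1 high fat diet library. Most subunits of the same complexes were not called. Of 61 nuclear subunits of complexes I to IV, 2 were called lower and 25 were above 0, with a median of −0.07, and of 15 ATP synthase subunits 2 were called with a median of −0.09. The calls of Ndufa1, Ndufv3 and Atp5o were lost in the fit of the 6 chow libraries and without any 1 of the 3 knockout-labelled libraries or wild-type-labelled replicate 3.

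Short genes were lower under the knockout label more often than long ones. Among protein-coding genes of up to 1000 exonic bases, 5 of 234 (2.14%) were called lower and the median log2 fold change was −0.12. For genes of over 8000 bases, 3 of 2762 (0.109%) were called lower and the median was 0.08, and the 3 bins between had −0.09, −0.05 and 0.00 in order of length. The 40 protein-coding genes called lower had a median exonic length of 2838 bases and the 16 called higher 5566, against 4775 for all 13665 tested. Genes of up to 1000 bases took 1.19%, 1.38% and 1.47% of nuclear protein-coding counts under the wild-type label and 1.19%, 1.22% and 1.09% under the knockout label (exact permutation p = 0.2, adjusted p = 0.38 over 19 measures). The part of gene length in the calls was not tested.

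Among small RNA genes the share called was higher, with 14 of 138 called (10.1%), all lower, against 0.508% of all tested genes. Small RNA genes other than mitochondrial tRNAs took 5.8%, 5.6% and 8.2% of nuclear counts under the wild-type label. Under the knockout label they took 3.6%, 5.7% and 5.6%, which overlapped (exact permutation p = 0.2, adjusted p = 0.38 over 19 measures). The most abundant of the 14 called was Mir6236 (chromosome 9, 110281287 to 110281409). Its RefSeq mature sequence is shown with its seed (bases 2 to 8, which pair with targets) in capitals, because the counted gene is longer than the microRNA.
mmu-miR-6236, chr9:110281353-110281371, plus strand: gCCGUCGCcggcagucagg

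The mature sequence has 19 bases, 78.9% of them G or C, and its seed occurs in 1 of the 1738 mature entries of the table, its own. The counted gene has 123 bases, so the counts do not tell the mature microRNA from longer RNA over the same place. Mir6236 had 208, 395 and 331 CPM under the wild-type label on chow, 85.1, 78.6 and 68.0 CPM under the knockout label, and 51.5 to 115 CPM on the high fat diet (log2 fold change −2.01, SE 0.23, adjusted p = 0.000505). Lars2, the mitochondrial leucyl-tRNA synthetase gene, had 154, 340 and 178 CPM against 65.9, 78.5 and 77.8 CPM (−1.60, SE 0.24, adjusted p = 0.00478). Gm42418, a non-coding gene at a ribosomal RNA repeat, was chosen for its values. It had 2154, 4311 and 2241 CPM against 902, 1204 and 1154 CPM. All of these were highest in wild-type-labelled replicate 2. Without that library the Lars2 log2 fold change was −1.17, still called.

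Some transfer RNAs of the mitochondrial genome were lower too. mt-Ti, the isoleucine tRNA (mitochondrial genome 3706 to 3774), had 11.4, 11.1 and 7.47 CPM against 3.62, 1.83 and 1.19 CPM (log2 fold change −2.17, SE 0.31, adjusted p = 0.00216), and mt-Tm, the methionine tRNA, 8.81, 3.88 and 9.87 CPM against 2.73, 1.39 and 0.757 CPM (−2.21, SE 0.43, adjusted p = 0.0372). The annotation overlaps mt-Ti with mt-Nd1 on the same strand, so reads of that messenger could be split. The mt-Tm call was lost in the fit of the 6 chow libraries and in 4 of the 6 fits that left out 1 of them. Of 16 tested mitochondrial tRNA genes 3 were called, while of 13 protein genes of the mitochondrial genome 0 were, with a median of −0.27. Mitochondrial tRNA genes took 0.0359%, 0.0279% and 0.0304% of mitochondrial counts under the wild-type label. Under the knockout label they took 0.0281%, 0.0271% and 0.0251%, which overlapped (exact permutation p = 0.2, adjusted p = 0.38 over 19 measures).

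Single genes of other functions completed this arrangement. Rgs9, which shortens G protein signals, had 4.64, 4.94 and 14.6 CPM under the wild-type label and 1.01, 1.35 and 1.01 CPM under the knockout label (log2 fold change −2.85, SE 0.41, adjusted p = 0.00413). Gadd45g, a growth arrest gene, had 23.8, 26.8 and 25.8 CPM against 12.4, 6.43 and 16.7 CPM (−1.09, SE 0.23, adjusted p = 0.0415), and its call was lost in the fit of the 6 chow libraries, with voom and in 4 of the 6 fits that left out 1 chow library. Ankrd23, a stretch-related ankyrin repeat gene of muscle that overlaps the predicted gene Gm42417, had −1.73, and Ccdc12 had −1.21. Ankrd23 lost its call without wild-type-labelled replicate 3 and Ccdc12 without knockout-labelled replicate 2.

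**Figure D5:**
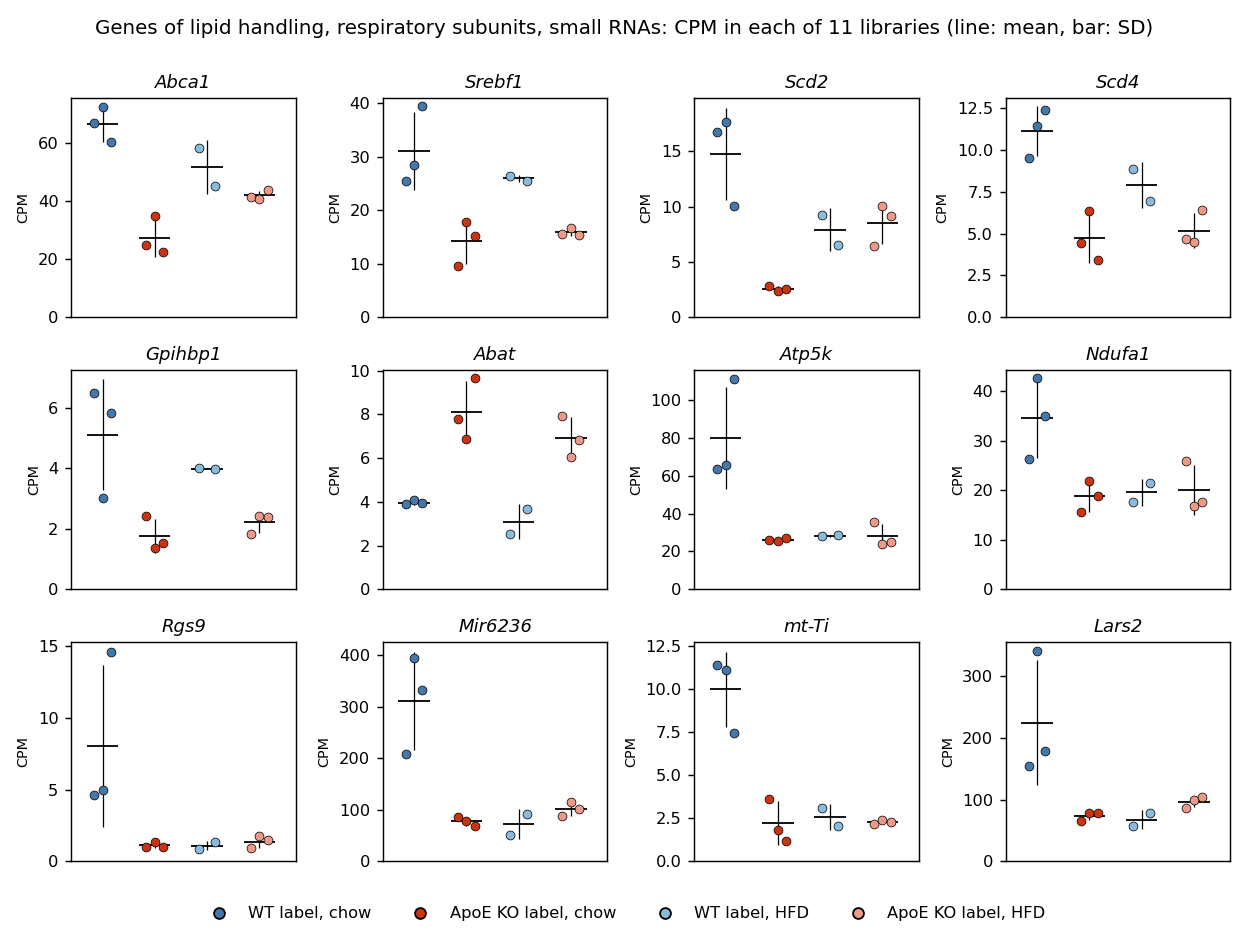
CPM of 12 genes in each of 11 libraries, with the group mean (line) and SD (bar). Srebf1, Scd4, Gpihbp1 and Abat keep their side of the label on both diets, Scd2 is low in the knockout-labelled chow libraries alone, and Atp5k, Rgs9, Mir6236, mt-Ti and Lars2 are high in the wild-type-labelled chow libraries alone.

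The genes called higher under the knockout label outside the Apoe region were of varied function. Iigp1, an interferon-inducible GTPase, had 4.93, 8.03 and 6.49 CPM under the wild-type label and 11.01, 23.8 and 12.7 CPM under the knockout label (log2 fold change 1.28, SE 0.25, adjusted p = 0.0323). It was the only call among 32 interferon-stimulated genes, 19 of which were below 0, and the list median of −0.23 turned to 0.16 with a filter of 50 counts and to 0.00 without wild-type-labelled replicate 1. Ctsc, the protease cathepsin C, had 3.57, 2.82 and 2.55 CPM against 6.80, 8.70 and 4.14 CPM (1.12, SE 0.24, adjusted p = 0.0433). It is abundant in macrophages, and among the knockout-labelled libraries it was lowest in replicate 3, as the summed macrophage markers (9.29 CPM there) were. The marker sum in that library was below that of each wild-type-labelled library, while its Ctsc level was above theirs. The part of macrophage content in the Ctsc result was not tested. Cenpf, a kinetochore protein gene, had 13.6, 14.1 and 11.6 CPM against 25.1, 30.8 and 18.3 CPM (0.91, SE 0.18, adjusted p = 0.0301), while 0 of 14 cell cycle genes were called. Srp54a, of the signal recognition particle, had 0.88, Tmed7, a cargo receptor of the early secretory pathway whose annotation overlaps Ticam2, 0.84, Il13ra1, a receptor chain for interleukins 4 and 13, 0.78, and Tmem170b 0.63. The calls of these 7 genes were all lost in the fit of the 6 chow libraries, which called 2 genes higher and 36 lower, and each was lost in 3 to 5 of the 6 fits that left out 1 chow library.

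Most programmes of the stressed heart had no called member. With 0.508% of all tested genes called, no call is the likely outcome for lists this short. Hypertrophy and fetal genes had 0 of 18 called (median 0.19), with Myh7, the fetal myosin heavy chain, at 74.8, 123 and 159 CPM under the wild-type label and 260, 176 and 334 CPM under the knockout label (log2 fold change 1.11, adjusted p = 0.244). Calcium handling genes and ion channels had 0 of 25 called with 20 above 0 (median 0.11). Pln, phospholamban, had 0.74 (adjusted p = 0.145). Immediate early genes had 0 of 23 called with 19 below 0 (median −0.38), and Fosb and Fos had −1.44 and −0.76 (adjusted p = 0.0628 and 0.0734). The unfolded protein response had 0 of 20 called with 18 above 0 (median 0.29). Fatty acid oxidation enzymes had 0 of 25 called with 20 below 0 (median −0.11), and Cpt1b, the muscle carnitine palmitoyltransferase, had −1.30 (adjusted p = 0.0563). Glycolysis had 0 of 21 called, and its median was 0.00 and changed sign with the scaling. A p above the threshold does not show that these genes had the same level.

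Cell type markers and matrix genes gave no calls either, again the likely outcome for short lists. Macrophage markers had a median of 0.53 with 16 of 19 above 0, and −0.42 on the high fat diet. Extracellular matrix genes had 0 of 25 called and a median of −0.12, and fibroblast markers 0 of 15 and 0.11. Adipocyte markers had 2 tested members, both below 0. Pericyte and smooth muscle markers had a median of −0.05. Their member Cnn1 had 0 counts in all 3 wild-type-labelled libraries and 18, 2 and 3 in the knockout-labelled ones, at least 6.60-fold higher against a floor of 3 counts over the group, and the list median with that bound was also −0.05. Myh11, smooth muscle myosin, was 23.4 CPM in knockout-labelled replicate 1 and between 2.32 and 5.76 CPM in the other 5 chow libraries. Antigen presentation, NF-kappaB and cytokine, clock, glucocorticoid and insulin signalling genes had 0 called of 19, 22, 20, 16 and 20 tested members. Of 52 cytosolic ribosomal protein genes 0 were called and 36 were below 0, with a median of −0.12.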

How the data were processed

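The authors deposited 1 file per library with whole-number counts of reads per gene and no normalization. The labels' protocols name the Maxwell RSC simplyRNA kit for RNA and the SMART-Seq Stranded kit for libraries. The build GRCm38 (mm10) and the tools HTSeq 0.13.5, STAR 2.7a and Trimmomatic 0.39 are those listed in the submitters' processing notes. The roles and settings of these tools are not given in the sources used here. Each file lists 55335 gene identifiers. GENCODE annotation of GRCm38 matched 55154 of them, and 181 stayed without a symbol. No row was unnamed.

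Counts were analysed with edgeR 4.0.16 in R 4.3.3: TMM factors, the default filterByExpr with the 4 groups, a separate mean for each group, and the quasi-likelihood test in its robust form, which left 7 residual degrees of freedom. The groups all entered the fit, with 11 libraries. Replicate 3 of WT_HFD was left out because 72.1% of its counts on 929 gene pairs that overlap on opposite strands were on the antisense member, against 0.331% to 0.477% in the other libraries. It also had 1347110 counts in all. Benjamini-Hochberg adjustment of the two-sided p-values ran over all 16932 tested genes, with calls at under 0.05. The main analysis did not pair libraries. Same-numbered chow libraries had correlations of their deviations from group means of 0.252, 0.0514 and −0.169, and the labels name no shared animal, litter or day. Replicates differed by more than sampling noise (chi-square per degree of freedom 24.6 to 189.7).

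Named genes are Apoe, the called genes of largest change (up to 12 each way, with groups that did not overlap and a mean log2 CPM of 2 or more), the called genes within 10 Mb of Apoe, and up to 4 called members of each of 36 lists, or 2 members with the smallest p as values. Predicted genes and pseudogenes were left out of the rule, and some genes it named are not reported here. The comparison, the lists and the rule were chosen with earlier results of these data known, so no list is independent evidence. Lists are described by counts and medians, with no set test. The fit was tested on simulated data. Alternatives were RLE factors, totals without mitochondrial genes, DESeq2 1.42.0, voom of limma 3.58.1 with sample weights, filters of 50 counts or none, other sets of libraries, the replicate block, and windows of 5 and 20 Mb.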

Additional observations from a re-analysis of the deposited data

Results flagged for a closer look

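Of the genes named by the rule for named genes and reported above, 16 had a genotype difference that itself differed between the diets by edgeR's interaction test (high fat diet log2 fold change minus chow log2 fold change, adjusted p under 0.05, 3 against 3 chow and 3 against 2 high fat diet libraries). Over all tested genes 37 (0.219%) passed. Most of the 16 were named for their chow difference, which is 1 side of the interaction, so that choice favoured passing. Of the 16, 11 lie within 10 Mb of Apoe. Their interaction was −5.03 for Apoe, −1.97 for Vasp, −1.95 for Ercc2, −1.38 for Bcam, 6.46 for Igsf23, 4.41 for Blvrb, 4.06 for Pnmal2, 3.42 for Trappc6a, 2.92 for Ccdc8, 1.73 for Ccdc9 and 1.28 for Sae1. Zfp30, on the same chromosome, had 2.89. In each of these 12 genes the sign of the label difference on chow was opposite to that on the high fat diet. The remaining 4 were Scd2 at 2.64, Mir6236 at 2.50, Lars2 at 2.12 and Atp5k at 1.61, all lower under the knockout label on chow. The genes named after their values were seen that passed the same test were Akt2-ps at 4.28, Zkscan3 at 1.72 and Gm42418 at 1.64, also lower under the knockout label on chow.

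Each of the 11 libraries was left out in turn for the 16 genes of the rule, an alternative chosen after seeing the data. The genes were those that had already passed, so passing these fits is not independent evidence. The interaction passed in all 11 fits for Bcam, Blvrb, Ccdc8, Ercc2, Igsf23, Mir6236, Pnmal2, Scd2, Trappc6a, Vasp and Zfp30. It passed in 4 of 11 for Apoe, 7 for Atp5k and Sae1, and 8 for Ccdc9 and Lars2. Apoe lost its call without any 1 of the wild-type-labelled chow libraries, any 1 of the knockout-labelled high fat diet libraries, or wild-type-labelled high fat diet replicate 1.

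The library of the high fat diet that entered no fit had 72.1% of its counts on the antisense member of overlapping gene pairs, against at most 0.477% in any other library. The column header of its file carries the same short sample code as that of knockout-labelled chow replicate 1, although the counts of the 2 files differ.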

How the results depend on the processing

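The count of 86 called genes (21 higher, 65 lower) moved most with the choice of libraries. All 12 libraries gave 3 (0 higher, 3 lower) and the 6 chow libraries alone 38 (2 and 36). DESeq2 gave 434 (194 and 240), with 84 of the 86 among them, and no filter on low counts 475 (291 and 184). Leaving out 1 chow library gave 37 to 1801 calls (7 to 1048 higher, 28 to 753 lower), the highest without wild-type-labelled replicate 2, where the cause was not tested. RLE factors (93), totals without mitochondrial genes (86), the 50-count filter (128) and voom with sample weights (95) stayed within 1.5 times. In that order, 86, 85, 77 and 56 of the 86 main calls were among them, so voom kept a similar count with partly other genes. The replicate block gave 61 calls with 11 libraries (10 and 51) and 78 with the 6 chow libraries (12 and 66), and Apoe 2.62 and 2.50. Of the 86 main calls, 60 and 57 were among these. The libraries share only a number, so the block says nothing of pairing. Of the 6 chow libraries 3 correlated best with their own number.

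Calls within 10 Mb of Apoe were 27 by DESeq2, 1 with all 12 libraries, 7 with the 6 chow libraries, 7 with the replicate block and 11 libraries, and 6 to 47 with 1 library left out. Apoe (2.69) passed at 2.66 with the 50-count filter and 2.68 by DESeq2, and its range with 1 library left out was 2.40 to 3.10. The high fat diet comparison (8 calls) gave 4 to 20 and the interaction (37) 20 to 285 with 1 of 11 libraries left out, fits chosen after seeing the data, and both highest counts came without wild-type-labelled chow replicate 2.

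Of 38 named called genes 13 passed in all 6 fits without 1 chow library, and 0 changed sign in any of 16 settings. Igsf23, Scd2 and Zfp30 passed in all 16. Csf3r, a neutrophil marker at 0.43, ran from −0.0578 to 1.13 with 1 library left out, below 0 without replicate 1 of either label. Itga2b, a platelet marker at −0.85, ran from −1.33 to 1.15, the last without wild-type-labelled replicate 1. Of 574 list medians recomputed 545 stayed within 1 SD between replicates. No list median could be had for 2 blood cell lists with the 50-count filter.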
